A study of Homo sapiens with 5 samples.

Results

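The genes described here encode chromatin remodelers and histone methylation enzymes, chosen by symbol: the KMT2, KMT5 and SETD methyltransferases, the KDM demethylases, the CHD remodelers, the SMARC and ARID1 subunits of the SWI/SNF and ISWI complexes, the ARID3 to ARID5 proteins, EZH1, EZH2, EED, SUZ12 and DOT1L. In all, 63 genes met this rule, of 12468 genes in the tables used. RNA was sequenced from HLF, an established hepatocellular carcinoma line, in 5 conditions with 1 listed sample each. USP28-Ctrl carried a control guide RNA and USP28-KO a guide RNA against USP28, a deubiquitinase of MYC. The other 3 conditions were USP28-KO cells with an empty pRRL control vector, with USP28-WT or with USP28-M, a form that does not dimerise, introduced by lentivirus. Knockout cells were grown from picked single clones, so a property of the clone and the loss of USP28 cannot be told apart, and all 3 reconstituted conditions share the knockout background. The paper's supplement also names a control clone, to which the same limit would apply. Knockout cells had passed through puromycin selection and transduced cells through antibiotic selection, and no further treatment is named for these samples.

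Chromatin remodelers use ATP to slide or evict nucleosomes, and those covered here belong to the SWI/SNF (BAF), ISWI and CHD families. Histone methyltransferases and demethylases write and erase marks such as H3K4 methylation at active promoters and H3K27 methylation at silenced genes, the latter by the Polycomb complex PRC2. Many of these proteins come as paralogues that take the same place in a complex, so that the ratio of their transcripts tells which form a cell has the message for. MYC and its partner MAX bind the E-box CACGTG.

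The values used here are averages. For each gene the authors deposited 1 average log2 CPM (read number scaled to library size, on the log2 scale) over all libraries of USP28-Ctrl and USP28-KO together, named the knockout set below, and 1 over all libraries of the 3 reconstituted conditions together, named the reconstitution set. An average of this kind cannot show a difference between the conditions within a set, has no spread between replicates and supports no test. Beside each level stands a 95% exact Poisson interval from the estimated number of reads, which covers counting error only. Levels of different genes are compared as CPM per kb of the longest protein-coding transcript. The reads of all libraries together came to about 7690000 in the knockout set and 30460000 in the reconstitution set, so the latter has the narrower intervals. The members had between 50 and 2108 reads in the former, with a median of 476, and between 105 and 13567 in the latter.

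USP28 itself had an average log2 CPM of 5.15 in the knockout set and of 9.79 in the reconstitution set, where 2 of the 3 conditions carry a USP28 vector. As averages over several conditions, these values do not check the label of any single library. Of the defining hepatocyte markers ALB, APOA1, APOB, TTR, SERPINA1, AFP and HNF4A, SERPINA1 alone had a value, a log2 CPM of 1.88 in the reconstitution set, near its lowest average of 0.40. The defining hepatocyte transcripts thus did not show the labelled liver cell origin. All 4 mesenchymal markers had a value, with log2 CPM in the knockout set of 11.7 for VIM, 7.72 for CDH2, 6.32 for FN1 and 4.31 for ZEB1, and in the reconstitution set of 11.7, 8.06, 5.20 and 3.49. Of the 4 epithelial markers, KRT8 and KRT18 stood at log2 CPM of 11.2 and 10.7 in the knockout set, and CDH1 and EPCAM had no value. Of the leukocyte and endothelial markers, CD68 alone had a value, a log2 CPM of 6.86 and 7.73, and PTPRC, CD3E, PECAM1 and CDH5 had none.

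Of the 63 genes, 55 had a promoter in the RefSeq table for GRCh38.p14, which covers 250 bases before and 50 after the start of the gene. The E-box CACGTG, the same on both strands, was found in 5 of these promoters (9.09%) and in 7.26% of all 35116 promoters of the same length, so its share in the members was near that of promoters in general. The windows that hold it are shown because MYC turnover is the subject of the study. Each line reads 5′ to 3′ on the strand of the gene, with the E-box in capitals and up to 20 bases on each side.
CHD9: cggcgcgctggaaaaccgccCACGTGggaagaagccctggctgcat
KDM4B: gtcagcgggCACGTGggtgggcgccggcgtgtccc
KDM4C: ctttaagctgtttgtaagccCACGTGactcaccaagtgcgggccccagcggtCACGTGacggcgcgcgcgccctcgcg
KDM6A: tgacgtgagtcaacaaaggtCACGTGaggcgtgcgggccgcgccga
KMT2D: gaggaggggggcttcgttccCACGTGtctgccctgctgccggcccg
The window of CHD9 lies at chr16:53054857-53054902 on the plus strand, that of KDM4B at chr19:4968863-4968897 on the plus strand, that of KDM4C at chr9:6757890-6757967 on the plus strand, that of KDM6A at chrX:44873073-44873118 on the plus strand and that of KMT2D at chr12:49060890-49060935 on the minus strand. All 5 lie upstream of the annotated start. The promoter of KDM4C, a demethylase of H3K9 and H3K36, holds 2 matches, which begin 63 and 31 bases before the start. Among the members, the median level was 4.44 CPM per kb with an E-box and 11.3 without in the knockout set. Only 5 genes stand on the first side, from 2.35 for KDM4C to 6.19 for KMT2D. The contrast was not tested and was not made over all genes. The matches are descriptions of sequence, and binding at them was not analysed here. The CCAAT box was found on either strand in 21 of the 55 promoters (38.2%) against 34.6% of all promoters, and the GC box GGGCGG in 41 (74.5%) against 45.0%. The TATA box TATAAA was found in 1, that of ARID5B (1.82% against 11.5%). The 35116 promoters were not limited to the 12468 genes with a value here, and shares among those genes alone were not computed. EZH2, EED and SUZ12 all hold the CCAAT box, and EZH1 does not.

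As a group, the members were transcripts of moderate level and of more than usual length. In the knockout set 61 genes had a value. Before division by length, 43 of these 61 lay above the median of all genes and 23 above percentile 75 (median log2 CPM 5.95, against 5.33 over all 11102 genes). Their transcripts were long, with a median of 6.20 kb against 3.49 kb over all genes with a length. Per kb the picture changed, with a median of 8.87 CPM per kb for the members and 11.8 for all genes, and only 4 members stood above percentile 75 while 15 stood at or below percentile 25. Across 10782 genes the level per kb was lower for longer transcripts (Spearman's rho -0.489). The members were not compared with genes of like length. In the reconstitution set all 63 genes had a value, with a median of 8.81 CPM per kb against 8.93 for all genes, and 7 stood above percentile 75. ARID5A and KDM4D had a value in the reconstitution set alone, at 1.29 (1.07 to 1.54) and 1.16 (0.948 to 1.40) CPM per kb. In a bulk sample, fewer cells with a transcript and less of it per cell cannot be told apart.

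**Figure D1:**
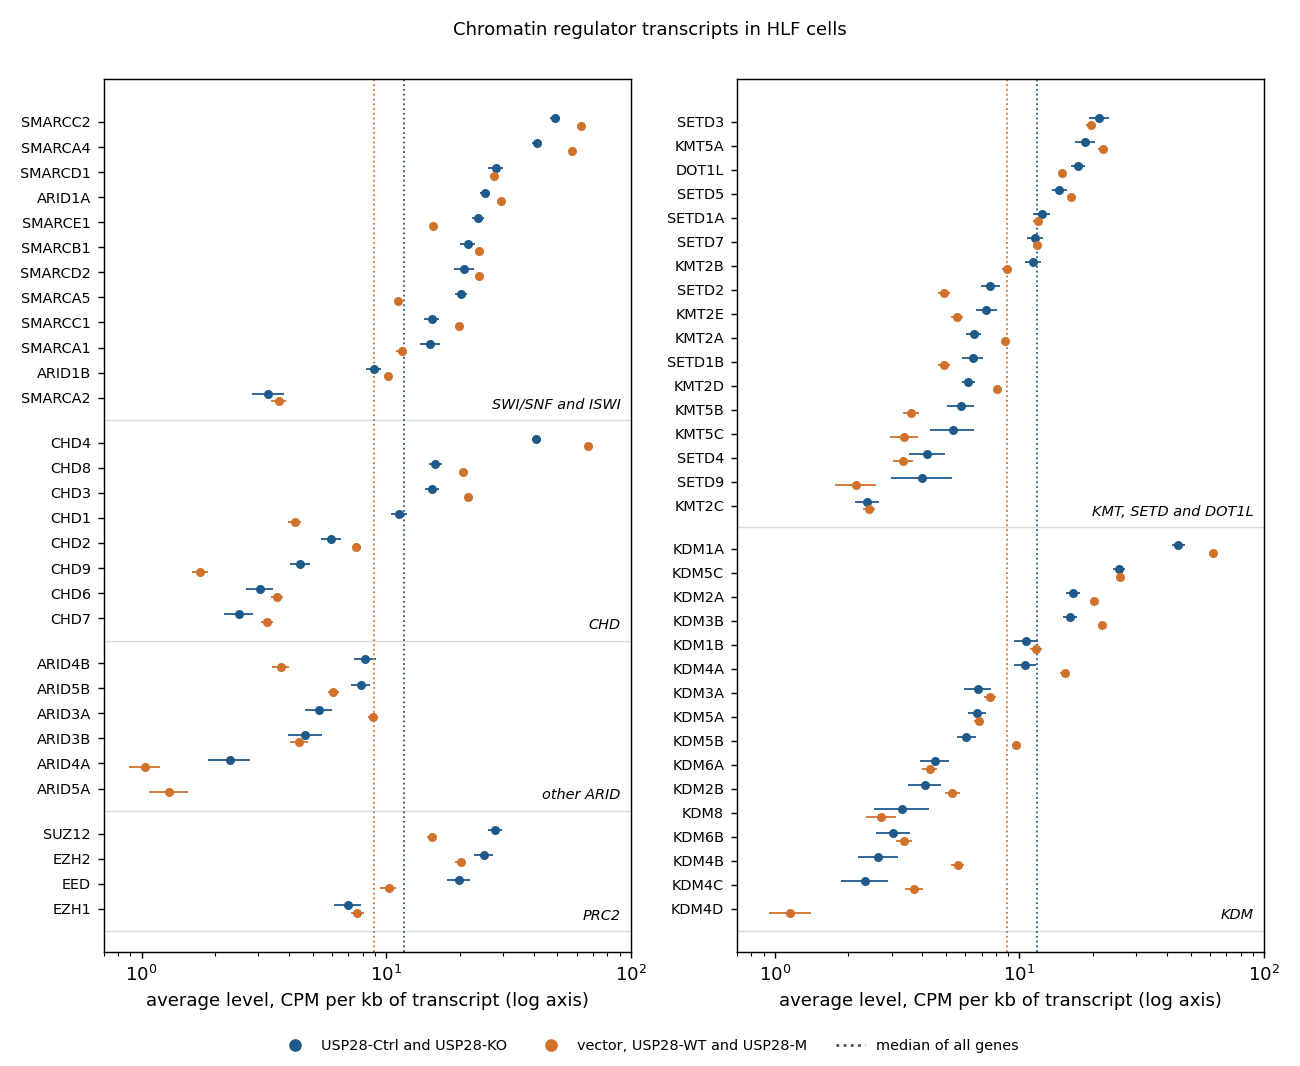
Average level of each member in CPM per kb of transcript on a log axis, with the 95% Poisson interval of the read number as a bar, for the knockout set (blue) and the reconstitution set (orange); dotted lines mark the medians of all genes. SMARCC2, SMARCA4, CHD4 and KDM1A stand furthest to the right in both sets, and SMARCA2 stands far to the left of SMARCA4.

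The 4 members above percentile 75 in the knockout set were SMARCC2, KDM1A, SMARCA4 and CHD4. SMARCC2, a scaffold subunit of the BAF complexes, stood at 49.0 (46.7 to 51.5) CPM per kb in the knockout set and at 62.3 (61.0 to 63.7) in the reconstitution set. KDM1A, the LSD1 demethylase of H3K4, stood at 44.5 (41.8 to 47.3) and 61.9 (60.3 to 63.5). SMARCA4, the BRG1 ATPase of BAF, stood at 41.2 (39.4 to 43.2) and 57.3 (56.1 to 58.4). CHD4, the Mi-2β ATPase of the NuRD complex, stood at 41.1 (39.3 to 42.9) and 66.7 (65.6 to 67.9), so that it had the highest level of the members in the reconstitution set. The intervals of SMARCA4, CHD4 and KDM1A overlapped in the knockout set, and those of SMARCC2 and KDM1A did so in both sets. Overlap of separate intervals does not settle an order, and intervals of the ratios between these genes were not computed. The lowest levels in the knockout set were those of ARID4A (2.30, 1.88 to 2.78), KDM4C (2.35, 1.87 to 2.91) and KMT2C (2.39, 2.13 to 2.67), whose intervals overlapped as well.

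Among the catalytic subunits of SWI/SNF, SMARCA4 was far above its paralogue SMARCA2 (BRM), which takes the same place in the complex. SMARCA2 stood at 3.30 (2.84 to 3.82) CPM per kb in the knockout set and at 3.63 (3.38 to 3.90) in the reconstitution set. This made SMARCA4 12.5-fold higher in the former (log2 ratio 3.64, 3.42 to 3.87) and 15.8-fold in the latter (log2 ratio 3.98, 3.87 to 4.08), the largest ratio of all 30 pairs with values in both sets. The DNA-binding subunit ARID1A stood at 25.4 and 29.4 CPM per kb and ARID1B at 8.87 and 10.1, a log2 ratio of 1.52 (1.39 to 1.65) and 1.53 (1.48 to 1.59). Of the scaffold pair, SMARCC2 exceeded SMARCC1 by a fold of 3.20 and 3.14. The log2 ratio of SMARCC1 to SMARCC2 was -1.68 and -1.65 per kb of transcript and -0.93 and -0.90 per kb of coding length, since the SMARCC1 transcript has the longer untranslated part. SMARCD1 stood somewhat above SMARCD2, at 28.02 and 20.8 CPM per kb in the knockout set, and at 27.6 and 24.0 in the reconstitution set. Their log2 ratio was 0.43 (0.26 to 0.61) and 0.20 (0.12 to 0.28) per kb of transcript. Per kb of coding length it was 0.91 and 0.67. The core subunits SMARCB1 and SMARCE1 stood at 21.5 and 23.7 CPM per kb in the knockout set, and their levels depend strongly on the transcript chosen, with 94.7 and 119 CPM per kb of coding length. ARID2, a subunit of the PBAF form that the symbol rule leaves out, stood at 4.38 and 3.65 CPM per kb.

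The ISWI ATPases SMARCA5 (SNF2H) and SMARCA1 (SNF2L) were of like level only per kb of transcript in the reconstitution set. SMARCA5 stood at 20.3 (19.2 to 21.4) CPM per kb in the knockout set against 15.1 (13.8 to 16.5) for SMARCA1. In the reconstitution set the values were 11.2 (10.8 to 11.6) and 11.6 (11.0 to 12.2), and the log2 ratio of -0.05 (-0.14 to 0.05) did not separate them. By coding length SMARCA5 stood higher in both sets, with log2 ratios of 1.40 and 0.93.

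Among the CHD remodelers, CHD4 exceeded its NuRD paralogue CHD3, which stood at 15.4 (14.4 to 16.5) CPM per kb in the knockout set and at 21.6 (21.0 to 22.2) in the reconstitution set. CHD8, a remodeler mutated in autism, was the highest of the CHD6 to CHD9 group, at 15.9 and 20.5 CPM per kb. CHD6 and CHD7 stood at 3.04 and 2.50 in the knockout set and at 3.58 and 3.26 in the reconstitution set. CHD7 is the gene of CHARGE syndrome. CHD1 and CHD2, which bind chromatin of transcribed genes, changed places between the sets. CHD1 stood at 11.2 (10.4 to 12.1) and 4.22 (3.97 to 4.49), and CHD2 at 5.94 (5.39 to 6.53) and 7.54 (7.23 to 7.87), so that the log2 ratio of CHD1 to CHD2 was 0.92 in the knockout set and -0.84 in the reconstitution set. CHD9 likewise lay above CHD6 and CHD7 in the knockout set, at 4.44 (4.03 to 4.87), and below both in the reconstitution set, at 1.73 (1.61 to 1.87). These ratios were not adjusted for GC content, with which differences between the sets moved, as described below. Centred on all genes, the log2 differences of CHD1 and CHD9 were -1.29 and -1.23. Against genes of like GC content they were -0.74 and -0.68, beside 0.34 for CHD2, 0.24 for CHD6 and 0.38 for CHD7.

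Of the PRC2 genes, the core subunits SUZ12, EZH2 and EED lay between 19.8 and 27.8 CPM per kb in the knockout set. SUZ12 stood at 27.8 (26.1 to 29.6), the methyltransferase EZH2 at 24.98 (22.9 to 27.3) and the H3K27me-binding EED at 19.8 (17.7 to 22.0). EZH1, the paralogue of EZH2 that is more common in resting cells, stood at 6.95 (6.11 to 7.87). EZH2 thus exceeded EZH1 by a fold of 3.59 in the knockout set and of 2.65 in the reconstitution set, where EZH2 stood at 20.1 and EZH1 at 7.60. By coding length these log2 ratios of 1.85 and 1.40 were 1.03 and 0.59. SUZ12 and EED were lower in the reconstitution set, at 15.3 (14.7 to 16.0) and 10.2 (9.46 to 11.0).

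The H3K4 methyltransferases of the KMT2 and SETD1 families lay between 2.39 and 12.3 CPM per kb in the knockout set, on transcripts of up to 19.4 kb. KMT2D and KMT2C, the MLL4 and MLL3 enzymes of enhancers, stood at 6.19 (5.80 to 6.60) and 2.39 (2.13 to 2.67) CPM per kb in the knockout set and at 8.10 and 2.43 in the reconstitution set. KMT2D was thus the higher, by a fold of 2.59 and 3.34. KMT2B and KMT2A stood at 11.4 (10.5 to 12.2) and 6.50 (6.07 to 6.96) in the knockout set, whereas in the reconstitution set they stood at 8.86 (8.50 to 9.23) and 8.74 (8.49 to 9.005) and were not separated. The log2 ratio of KMT2A to KMT2B in the reconstitution set was 0.41 per kb of coding length and -0.65 per kb of the union of exons. SETD1A, the promoter enzyme, exceeded SETD1B with log2 ratios of 0.93 (0.75 to 1.12) and 1.27 (1.17 to 1.37). KMT2E, a family member without known methyltransferase activity, stood at 7.33 and 5.55 CPM per kb.

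Of the remaining methyltransferases, DOT1L, which methylates H3K79, stood at 17.3 (16.3 to 18.4) and 14.9 (14.4 to 15.4) CPM per kb. SETD2, the H3K36 enzyme that adds the last methyl group, stood at 7.61 (6.94 to 8.32) and 4.92 (4.64 to 5.20). KMT5A, which monomethylates H4K20, stood at 18.5 (16.8 to 20.3) and 21.9 (21.0 to 22.9), above KMT5B and KMT5C, which add the further methyl groups. KMT5B and KMT5C stood at 5.75 and 5.35 in the knockout set and at 3.60 and 3.38 in the reconstitution set, and the intervals of their ratio spanned 0 on the log2 scale in both. SETD3, which methylates actin, stood at 21.2 (19.3 to 23.2) in the knockout set, with an interval that overlapped that of KMT5A. Per kb of coding length SETD3 stood at 34.2, below KMT5A (55.0) and SETD7 (77.5). SETD9, with 50 and 106 reads the member with the fewest reads in the knockout set, stood at 4.01 (2.98 to 5.29) and 2.15 (1.76 to 2.60). The other 3, SETD4, SETD5 and SETD7, lay between 4.20 and 14.6 CPM per kb in the knockout set.

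The demethylases spanned a wide range. KDM1A exceeded KDM1B by a fold of 4.18 and 5.30. KDM2A, which demethylates H3K36, stood at 16.5 (15.5 to 17.6) and 20.1 (19.5 to 20.7) CPM per kb, a fold of 4.02 and 3.77 above KDM2B (4.11 and 5.32). KDM3B stood at 16.1 and 21.6 and KDM3A, both H3K9 demethylases, at 6.74 and 7.60. KDM4A stood at 10.5 (9.48 to 11.7) in the knockout set, above KDM4B (2.65, 2.19 to 3.18) and KDM4C, whose intervals overlapped. In the reconstitution set KDM4A stood at 15.3, KDM4B at 5.59 (5.24 to 5.95) and KDM4C at 3.71 (3.40 to 4.04), so that the latter pair was then resolved. Among the H3K4 demethylases of the KDM5 family, KDM5C was the highest in both sets, at 25.4 (24.0 to 26.9) and 25.8 (25.1 to 26.5). KDM5A stood at 6.72 (6.17 to 7.30) and 6.82 (6.54 to 7.10) and KDM5B at 6.07 (5.55 to 6.64) and 9.69 (9.35 to 10.0), so that the counting interval did not separate this pair in the knockout set. The order of KDM5A and KDM5B turned with the length measure, since in the reconstitution set their log2 ratio was -0.51 per kb of transcript and 0.65 per kb of the union of exons, and in the knockout set it was 0.14 and 1.30. The H3K27 demethylases KDM6A and KDM6B were both low, at 4.50 and 3.04 in the knockout set and at 4.31 and 3.39 in the reconstitution set. KDM8 had 63 reads in the knockout set and stood at 3.33 (2.56 to 4.26).

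Of the other ARID genes, ARID4B and ARID4A, which encode subunits of the SIN3 corepressor, differed by a fold of 3.56 and 3.57 although both levels moved, from 8.17 and 2.30 CPM per kb in the knockout set to 3.70 and 1.03 in the reconstitution set. ARID3A and ARID3B were not separated in the knockout set (5.31 and 4.67), and ARID3A was the higher in the reconstitution set (8.81 and 4.40, intervals 8.39 to 9.26 and 4.05 to 4.78). ARID5B stood at 7.86 and 6.07.

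Over all pairs, 17 of 30 were at least 2-fold apart in the knockout set and 20 in the reconstitution set. The share among pairs of unrelated genes was not computed, so these counts do not set paralogues apart from other genes. Genes of larger families, such as CHD8 and KDM5C, enter several pairs. All 17 were at least 2-fold apart with the same order in the reconstitution set as well. In 23 pairs the order was the same in both sets under 3 measures of length, the longest transcript, the union of exons and the coding length. The difference was at least 2-fold under all of these in 12 pairs, SMARCA4/SMARCA2, ARID1A/ARID1B, ARID4A/ARID4B, CHD6/CHD8, CHD7/CHD8, KMT2C/KMT2D, KDM1A/KDM1B, KDM2A/KDM2B, KDM3A/KDM3B, KDM4A/KDM4B, KDM4A/KDM4C and KDM5A/KDM5C.

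The partner subunits and other methyltransferases of a fixed list of 52 genes stood at a median of 16.0 CPM per kb in the knockout set, where 51 had a value, above the median of 8.87 of the members. HDAC1, a deacetylase of NuRD, was the highest of its group at 88.3 CPM per kb and RBBP7, a histone chaperone of PRC2 and NuRD, stood at 76.0. The BAF subunits SS18 and ACTL6A stood at 59.6 and 41.2. DPY30, a core subunit of the H3K4 methyltransferase complexes, stood at 62.7, far above KMT2B and KMT2A. NSD2, an H3K36 methyltransferase, stood at 62.5, above every member. The levels of these genes in the reconstitution set are given by their medians, of 20.7 for BAF, 14.8 for COMPASS, 19.9 for PRC2, 20.8 for NuRD and 6.27 for ISWI partners.

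Levels of the members were close between the sets, with a Pearson r of 0.924 and a Spearman's rho of 0.914 of the log2 CPM across 61 genes (0.939 and 0.934 across 10976 genes), where each point is an average over libraries that share cell line and pipeline. The sets were normalized separately, and the genotypes, the vectors and the depth differ between them, so the source of a difference cannot be told apart and none was tested. To describe it, the difference of the log2 CPM, reconstitution minus knockout set, was centred on the median of all shared genes, which was -0.12. Of the 61 members, 13 were higher by at least 0.5 in the reconstitution set and 11 lower, which is 39.3% of them against 33.5% of all genes (14.0% higher and 19.6% lower). The median centred difference was 0.25. By family it was 0.48 for CHD, 0.40 for KDM, 0.29 for SWI/SNF and ISWI, -0.10 for KMT, SETD and DOT1L, -0.25 for the other ARID genes and -0.46 for PRC2. These medians rest on 4 to 17 genes each, with ranges of -1.29 to 0.82 for CHD and -0.83 to 0.25 for PRC2. They were not adjusted for GC content. All genes have 0 by construction.

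The most negative differences were those of CHD1 (-1.29, counting SE 0.071), CHD9 (-1.23, counting SE 0.088) and ARID4A (-1.03, counting SE 0.18), with ARID4B at -1.02. EED (-0.83), SETD9 (-0.78), SUZ12 (-0.74) and SMARCA5 (-0.74) followed. The most positive were KDM4B (1.20, counting SE 0.14), ARID3A (0.85, counting SE 0.099) and CHD4 (0.82, counting SE 0.034), followed by KDM5B (0.80) and KDM4C (0.78). Of the 15 KDM genes 6 were higher by 0.5 or more and 0 were lower by as much, beside 14.0% and 19.6% of all genes. Against genes of like GC content, as described below, 4 KDM genes were higher by 0.5 or more and 0 were lower by as much. The shares of all genes were then 11.4% and 13.7%.

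These differences moved with the GC content of the transcript. CHD1, CHD9, ARID4A, ARID4B, SUZ12 and SMARCA5 have transcripts with 37.5% to 39.1% GC, and KDM4B and ARID3A have 61.2% and 59.0%. Of the 9 members below 42% GC, 8 (88.9%) were lower in the reconstitution set, beside 83.8% of all 2788 genes of that class, and the median centred difference was -0.74 for the members and -0.47 for all genes. Of the 24 members from 42% to 50% GC, 16 were higher (66.7%, beside 52.8% of all genes), with a median of 0.15. Of the 16 members from 50% to 58% GC, 15 were higher (93.8%, beside 71.2% of 2563 genes), with a median of 0.38 against 0.22. At 58% GC or more the differences were no larger, as 8 of 12 members were higher (66.7%, beside 67.7% of all genes), with a median of 0.27 against 0.18, and KMT5C and KMT2B, with 66.1% and 63.5% GC, stood at -0.54 and -0.24. Across the members the Spearman's rho of the difference with GC content was 0.446, and across 10684 genes it was 0.482, each given as a description. The trend is thus that of genes in general, and its source was not tested.

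**Figure D2:**
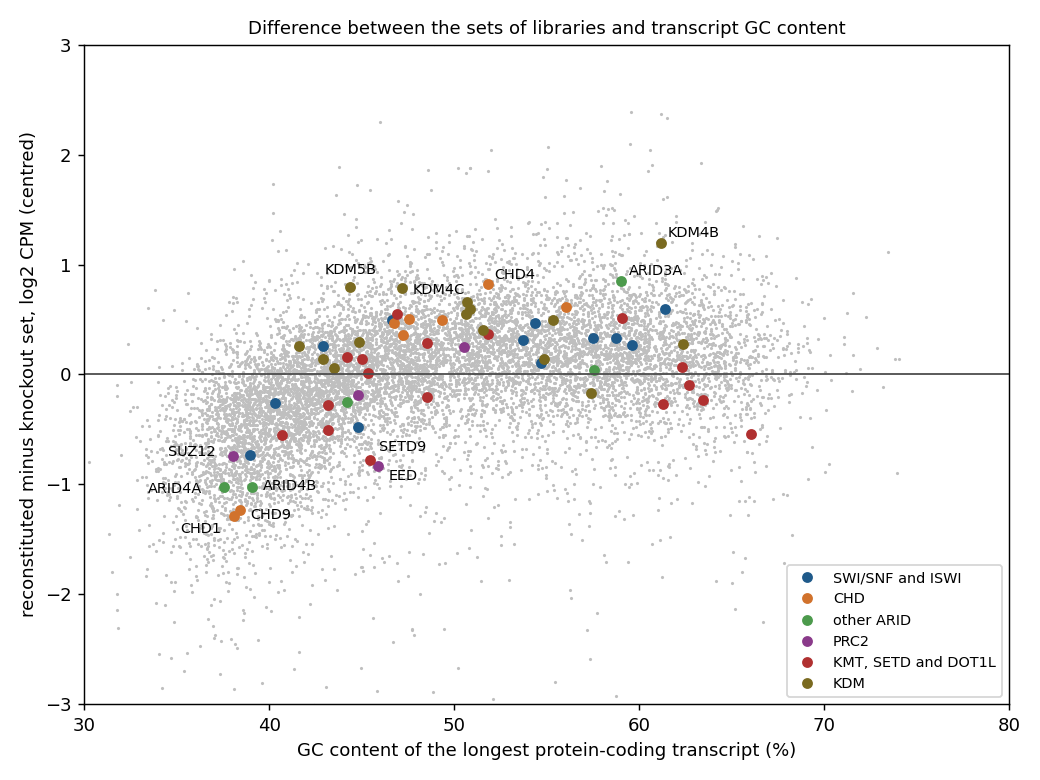
Centred difference in average log2 CPM, reconstitution minus knockout set, against the GC content of the longest protein-coding transcript for 10684 genes (grey) and the members (coloured by family); 12 genes lie outside the axes. The AT-rich CHD1, CHD9, ARID4A, ARID4B and SUZ12 lie low with the cloud of other AT-rich genes, and KDM4B lies high among the GC-rich genes.

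With the difference taken against genes of like GC content, in 20 bins of equal size, 12 of the 61 members (19.7%) were apart by 0.5 or more, beside 25.1% of all genes. Of these 12, 6 were higher and 6 lower, beside 11.4% and 13.7% of all genes. Centred on all genes, 11 of the 12 were apart as well, and KDM1B, at 0.25, was not. KDM4B (1.00), KDM5B (0.79), ARID3A (0.67), KDM4C (0.66), CHD4 (0.59) and KDM1B (0.55) were higher in the reconstitution set. EED (-0.93), SETD9 (-0.88), CHD1 (-0.74), CHD9 (-0.68), KMT5C (-0.68) and ARID4B (-0.52) were lower. SUZ12 and SMARCA5 came to -0.18 and -0.24, and ARID4A to -0.47.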

How the data were processed

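Total RNA of HLF cells was made into NEBNext Ultra libraries. Per the submitters' processing notes and the study's methods, the authors used bcl2fastq 2.20, STAR 2.5.4, edgeR 3.26.8 and the build hg19. The counter, its use of strand, the filter on low genes and the number of libraries per condition are not given in the sources used here. The authors deposited 3 tables of their own comparisons (fold changes, test statistics, p-values and adjusted p-values), which are neither used nor printed here, and 1 average log2 CPM per gene, which is. The header of the knockout table is shifted by 1 cell, and columns were assigned by their values. For all 12342 genes the average was the same in both tables of reconstituted cells, which were therefore taken as 1 fit. There were 0 unmatched columns of per-sample values.

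Lengths, exons, coding lengths and GC content came from GENCODE release 29, matched by NCBI gene ID for 97.1% and 95.9% of the genes and for every member. No coordinate of GRCh38 was set beside the hg19 data. Read numbers were estimated from the steps between the averages of the 1130 lowest genes, of which 94.9% in the knockout set and 67.3% in the reconstitution set lay within 0.1 reads of a whole number. They include any prior count, and the estimator was tested on simulated data. The simulation drew a pooled count per gene, so it does not cover averaging over several libraries. No test was run. The members, pairs and lists were chosen with earlier results of these data known. Named genes are all members of the fixed pairs and families, and the 3 highest, 3 lowest and 3 most different in each direction. KDM7A and SMARCD3 had no value under these symbols and were not analysed here. Scripts ran under Python 3.11.15, with intervals from scipy 1.17.1, tables handled in pandas 2.3.3 on numpy 2.4.6, and plots drawn by matplotlib 3.10.9.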

Additional observations from a re-analysis of the deposited data

How the results depend on the processing

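The number of members above percentile 75 of all genes by level per kb, 4 in the knockout set, was 7 in the reconstitution set and 23 without division by length. The reconstitution set ranks the members among more genes. The number of members at least 0.5 apart between the sets, 24 with centring on all genes, was 12 within bins of GC content, an alternative chosen after the data were seen. The number of members with a value, the number of pairs at least 2-fold apart and the other alternatives for these counts stayed within 1.5 times. Of the 30 pair ratios in the knockout set, 14 stayed inside their counting interval with coding length, 12 with the union of exons and 12 in the reconstitution set, and none of the 17 ratios of at least 2-fold changed sign under any of these alternatives. No pair ratio was adjusted for GC content. No paired analysis was possible because each set holds 1 average per gene. Leaving out a replicate could not be done for the same reason. The intervals cover counting error alone, so variation between cultures is not in them, and genes with few reads such as SETD9 and KDM8 are placed least precisely. Without stated strand, reads from a gene and its antisense partner cannot be told apart.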
